A study of Rattus norvegicus with 24 samples.

Results

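The comparison covered 6 of the 24 mRNA libraries of a study of surgery and acupuncture in the rat brain. All 6 came from the paraventricular nucleus of the hypothalamus (PVN), 3 from the sham needling group (SEA) and 3 from the normal control group (NC), and they were chosen by their sample titles. The rats were male Sprague-Dawley rats. SEA rats had a piece of the left liver lobe removed under isoflurane, and before and after the operation, while awake, they had needles inserted on a single side at the Zusanli and Sanyinjiao points with no stimulator connected. NC rats had no operation and no needles. Rats of both groups were held in a restraint device, so restraint was shared by both sides, whereas surgery, isoflurane and needling cannot be told apart in SEA against NC. The study also held an operated group without needles (HT) and an operated group with current through the needles (EA), and the same 4 groups in the amygdala, in its central nucleus (CEA). The comparison asks how the PVN of an operated and sham-needled rat differed from that of a rat left alone, a day after the last needling.

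The PVN is the part of the hypothalamus whose neurons make corticotropin-releasing hormone (Crh), thyrotropin-releasing hormone (Trh), vasopressin (Avp) and oxytocin (Oxt). Crh neurons set off the release of ACTH from the pituitary and so of glucocorticoids from the adrenal gland, and glucocorticoids in turn hold the Crh neurons back. Injury outside the brain reaches the PVN through nerves and through the vessels, whose endothelial cells respond to cytokines in the blood.

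The PVN libraries carried the markers of their label. Sim1 and Otp, transcription factor genes that define PVN neurons, were at 9.73 to 14.6 CPM and 26.3 to 30.3 CPM in the 6 PVN libraries and at 0.118 to 0.96 CPM and 0.265 to 1.44 CPM in the CEA libraries of the same treatments, where CPM is a gene's share of the counts scaled to 1e6, with library sizes scaled by the TMM factors of edgeR. Total counts ran from 14815382 to 17596621. The libraries did not fall into 2 tight groups. Across 16673 genes, NC replicate 2 correlated with the 3 SEA libraries at Pearson's r of 0.984 to 0.988 on the log2 CPM scale, and with NC replicates 1 and 3 at 0.962 and 0.973, as a description, since genes are not independent replicates. On the first principal component, which held 51.1% of the variance, NC replicates 1 and 3 lay at -54.3 and -35.1, NC replicate 2 lay at 20.6 and the SEA libraries lay between 21.1 and 25.5. NC replicate 2 therefore stood with the SEA libraries and against its own label, and the libraries of each gene are given one by one for that reason.

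The libraries that stood apart also differed by gene length. Genes were divided into 5 equal classes by the length given in the count table, and the median deviation from the mean of the 6 libraries was read in each class. In the class with the longest genes (median 5213 bases), the deviation was -0.12 in NC replicate 1 and -0.11 in NC replicate 3 on the log2 scale, against 0.051 in NC replicate 2 and 0.059 to 0.082 in the SEA libraries. In the class with the shortest genes (median 816 bases), it was 0.12 and 0.080 in NC replicates 1 and 3, against -0.032 in NC replicate 2 and -0.065 to -0.037 in the SEA libraries. Across genes, the log2 fold change of SEA against NC had a Spearman correlation of 0.29 with length in the PVN and of 0.0002 in the CEA. Gene groups are therefore given in addition, by counts or medians, from a fit in which the length trend of every library was removed, and in which 0 genes passed the adjusted threshold and 1811 of 16673 the unadjusted one (10.9%), 981 higher (5.88%) and 830 lower (4.98%).

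**Figure D1:**
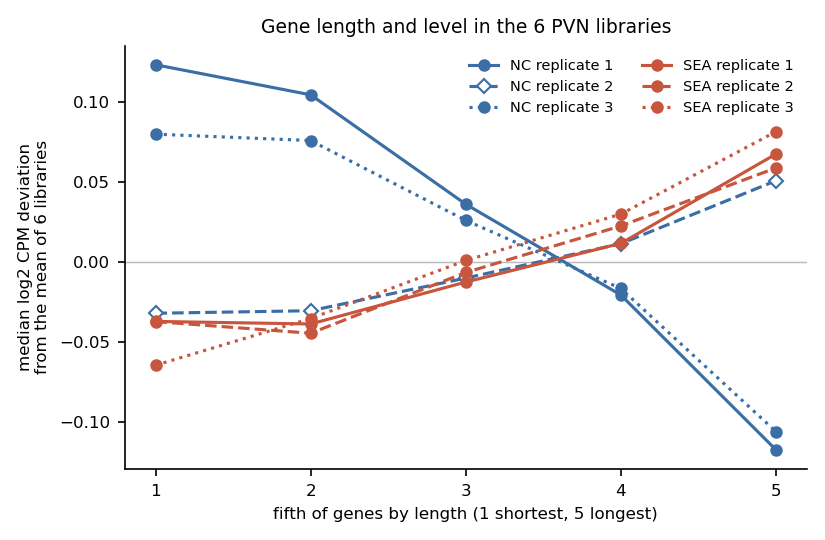
Median log2 CPM deviation from the mean of the 6 PVN libraries (y axis) in 5 equal classes of genes ordered from the shortest to the longest (x axis), with a line for each library. NC replicates 1 and 3 slope down, from 0.12 and 0.080 to -0.12 and -0.11, whereas NC replicate 2 and the 3 SEA libraries slope up.

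By edgeR, no gene passed the adjusted threshold with all 6 libraries, and other tools made calls. In its quasi-likelihood test, 0 of 16673 genes had a Benjamini-Hochberg adjusted p under 0.05 (0.0% of genes tested). Unadjusted, the p was under 0.05 for 2118 genes (12.7% of genes tested), with 1044 of them higher in SEA (6.26%) and 1074 lower (6.44%), against 834 if no gene differed. In 1660 genes (9.96%) every SEA library was above every NC library, and in 1447 (8.68%) every SEA library was below. DESeq2 called 25 of 24681 genes at an adjusted p under 0.05 (0.101%), 13 higher (0.0527%) and 12 lower (0.0486%), and 2139 by unadjusted p (8.67%), of which 1380 were higher (5.59%) and 759 lower (3.08%). The 24681 are all genes with a DESeq2 p value, with or without an adjusted one, and were not filtered as in edgeR, so these shares have another base. Limma voom, which gave NC replicate 2 the lowest weight of the 6 libraries, called 2972 genes at an adjusted p under 0.05 (17.8%), 1895 higher (11.4%) and 1077 lower (6.46%), and 5785 by unadjusted p (34.7%), 3125 higher (18.7%) and 2660 lower (16.0%). Without NC replicate 2, edgeR called 4114 of 16908 genes (24.3%), 2407 higher (14.2%) and 1707 lower (10.1%), and 6416 by unadjusted p (37.9%), 3369 higher (19.9%) and 3047 lower (18.0%). Of the 4114, 4106 were also tested with all 6 libraries. NC replicate 2 lay nearer to the SEA mean than to the mean of NC replicates 1 and 3 in 3913 of the 4106, or 95.3%, against 74.0% of all genes tested. In 1508 of the 4106 the groups did not overlap with NC replicate 2 included. Of the 25 genes called by DESeq2, 24 were also called without NC replicate 2, and in 24 the groups did not overlap with all 6 libraries.

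Some of the genes with the smallest p values that were higher in SEA are genes of vessels or of the acute phase response. This describes single genes, and neither group was tested as a set. Lrg1, which encodes a secreted glycoprotein that rises in the acute phase and acts on endothelial cells, was at 0.822, 0.877 and 0.553 CPM in NC and 3.23, 2.72 and 2.79 CPM in SEA. The libraries of the groups were far apart for this gene, and the log2 difference of SEA minus NC was 1.94 ± 0.28 (standard error, as for every log2 difference here, n = 3 and 3, edgeR adjusted p = 0.375, DESeq2 adjusted p = 0.00753, range 0.00419 to 0.702 over the alternatives tried). A2m, a protease inhibitor of the rat acute phase, was at 0.885, 1.1 and 1.11 CPM in NC and 2.93, 2.65 and 2.91 CPM in SEA, a log2 difference of 1.44 ± 0.24 (edgeR adjusted p = 0.375). Both genes were low in every library, and the A2m values of the 3 SEA libraries differed less from each other than from any NC library.

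Vwf, the gene of the endothelial clotting protein von Willebrand factor, was at 53.2, 52 and 61.3 CPM in NC and 79.3, 99.3 and 92.7 CPM in SEA, with a log2 difference of 0.70 ± 0.11. Slc38a5, a glutamine and asparagine carrier found in brain endothelium, was at 1.52, 2.3 and 1.49 CPM in NC and 4.61, 5.43 and 4.18 CPM in SEA, with a log2 difference of 1.41 ± 0.26. In both, the lowest SEA library was above the highest NC library, and NC replicate 2 lay with the controls. Abcc9, a potassium channel subunit of pericytes, was at 16.3, 23.7 and 21.9 CPM in NC and 34.1, 32.7 and 36.5 CPM in SEA, and Tek, the endothelial receptor of angiopoietins, at 16.3, 23.9 and 17.6 CPM in NC and 33.4, 30.8 and 27.5 CPM in SEA. Ch25h, an enzyme that hydroxylates cholesterol and is induced in inflammation, was at 0.632, 1.21 and 1.44 CPM in NC and 3.23, 2.26 and 3.03 CPM in SEA. The edgeR adjusted p was 0.375 for each of these 5 genes, and all 3 SEA libraries were higher in each. DESeq2 called Vwf, Slc38a5 and Abcc9, at adjusted p of 0.00251, 0.0225 and 0.0284.

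Not every vessel gene was higher. Kdr, the main receptor of vascular endothelial growth factor, was at 16.6, 17.3 and 16.9 CPM in NC and 13.1, 13.1 and 11.1 CPM in SEA, a log2 difference of -0.45 ± 0.12 in the other direction (edgeR adjusted p = 0.375). Of the 15 endothelial and mural markers tested, 4 were higher and 1 lower at an unadjusted p under 0.05, beside 6.26% and 6.44% of all genes, 8 of the 15 had a difference above 0 and the median was 0.079. With the length trend removed, 3 were higher and 2 lower, beside 5.88% and 4.98%, and the median was 0.025. The summed level of the list was 495 to 589 CPM in NC and 608 to 648 CPM in SEA. The summed levels did not overlap. In bulk tissue, more cells of a type and more RNA per cell cannot be told apart. Of the 22 acute phase and cytokine response genes tested, 2 were higher and 0 lower at an unadjusted p under 0.05, and the median log2 difference of the list was -0.083, beside -0.020 over all genes tested (2, 0 and -0.0025 with the length trend removed). The list as a whole thus lay close to all genes. Blood markers summed to 11.6 to 17.6 CPM in NC and to 10.9 to 13.9 CPM in SEA and were low in all 6 libraries.

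Other genes of this kind had varied roles. Exoc2, a subunit of the exocyst that brings vesicles to the plasma membrane, was at 13.7, 15.6 and 12.7 CPM in NC and 27.1, 27.3 and 29.3 CPM in SEA, a log2 difference of 0.99 ± 0.12 (edgeR adjusted p = 0.351, DESeq2 adjusted p = 2.97e-06, range 2.96e-06 to 0.668 over the alternatives tried). In the operated groups without sham needling it was at 17.7 ± 2.95 CPM in HT and 13.6 ± 6.5 CPM in EA (SD, n = 3). These levels are set side by side with no test, since HT and EA would be compared with the same NC libraries. Heph, a copper-dependent ferroxidase that helps iron leave cells, was at 13.8, 16 and 14.9 CPM in NC and 29, 34.7 and 26.2 CPM in SEA, with a log2 difference of 1.0 ± 0.14, and at 34.5 ± 4.1 CPM in HT and 39.2 ± 7.22 CPM in EA (SD, n = 3). Heph was thus above every NC library in all 9 libraries of operated rats, whereas Exoc2 was higher in the SEA libraries than in any of the other 9 PVN libraries. Xdh, the enzyme that makes uric acid, was at 6.96, 6.69 and 4.75 CPM in NC and 11.4, 12.6 and 11.4 CPM in SEA. Nat8f3, of a family of N-acetyltransferases, was at 5.69, 8.28 and 5.31 CPM in NC and 15.7, 15.7 and 13.6 CPM in SEA, and Samd5 at 9.36, 14.3 and 11.4 CPM in NC and 21.8, 21.4 and 21.3 CPM in SEA. The edgeR adjusted p was 0.375 for Heph, Xdh, Nat8f3 and Samd5, and the DESeq2 adjusted p was 3.39e-05, 0.021, 5.32e-04 and 0.00983.

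**Figure D2:**
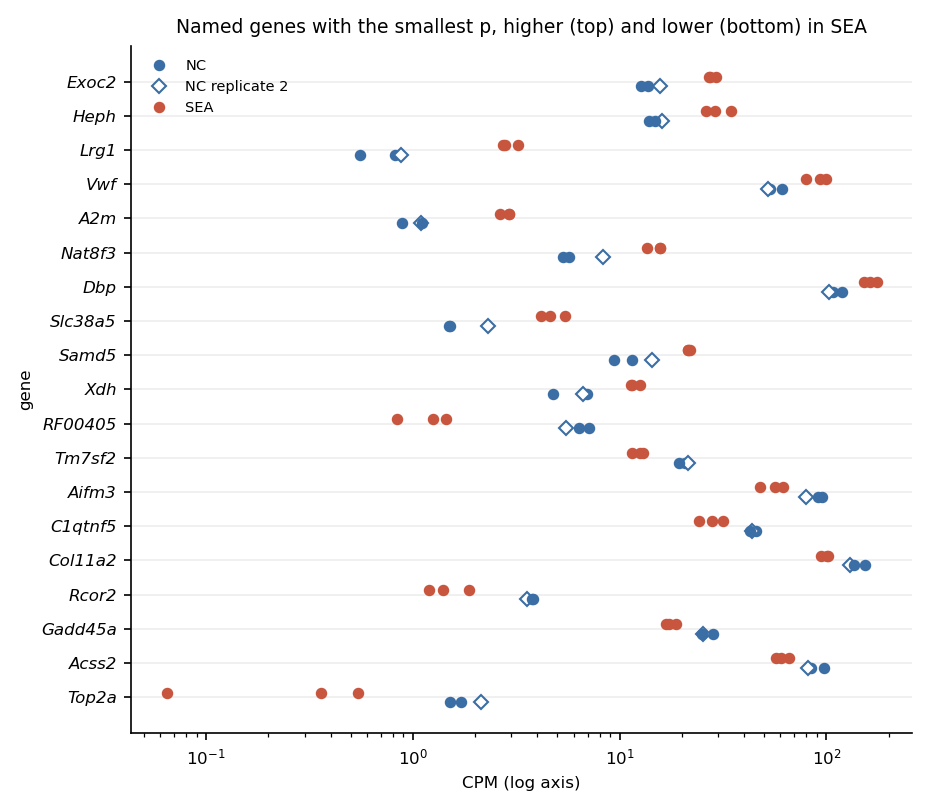
CPM on a log axis (x axis) of the 19 named genes with the smallest p in either direction (y axis), with a point for each of the 3 NC and 3 SEA libraries and NC replicate 2 drawn as an open diamond. The groups do not overlap in any of the 19, which the choice of genes required, and NC replicate 2 lies nearer to the other controls in 19 of them, a place that the same choice favours.

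Genes of the circadian clock were higher in SEA in part, by unadjusted p. In the clock, the pair Clock and Arntl (also called Bmal1) drives genes that carry an E-box in their promoters, among them the repressors of the Per family, and the transcription factors Dbp, Tef and Hlf, which act on D-boxes, pass the rhythm on to other genes. The promoters of 3 clock genes that were higher in SEA are shown here because they hold these elements. They are the 250 bases before the transcription start, from RefSeq on build GRCr8, 5′ to 3′ on the strand of the gene, with the E-box (CACGTG) or the D-box (TTATGNAA, read on both strands) in capitals.
Tef (chr7:115206577-115206826, plus strand): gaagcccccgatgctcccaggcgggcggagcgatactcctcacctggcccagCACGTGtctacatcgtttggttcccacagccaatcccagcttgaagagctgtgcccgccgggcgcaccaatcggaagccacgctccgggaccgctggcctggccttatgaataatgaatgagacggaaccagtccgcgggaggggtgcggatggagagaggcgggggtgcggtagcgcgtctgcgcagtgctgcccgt
Bhlhe41 (chr4:180569356-180569605, minus strand): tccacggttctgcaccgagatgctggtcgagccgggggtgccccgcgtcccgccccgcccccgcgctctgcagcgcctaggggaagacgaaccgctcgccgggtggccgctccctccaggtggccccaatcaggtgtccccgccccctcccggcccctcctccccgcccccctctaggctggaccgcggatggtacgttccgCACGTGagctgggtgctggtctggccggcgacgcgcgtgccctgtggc
Per2 (chr9:99496994-99497243, minus strand): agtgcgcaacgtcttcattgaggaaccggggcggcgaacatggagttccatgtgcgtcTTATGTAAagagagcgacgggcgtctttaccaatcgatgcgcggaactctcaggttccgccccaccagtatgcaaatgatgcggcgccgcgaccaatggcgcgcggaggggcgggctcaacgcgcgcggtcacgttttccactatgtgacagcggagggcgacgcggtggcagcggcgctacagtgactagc
The E-box of Tef begins 198 bases before the start, that of Bhlhe41 48 bases before it, and the D-box of Per2 192 bases before it. An E-box was present in the 250 bases of 4 of 18 clock list promoters and in 5.59% of all 33469 RefSeq promoters, and a D-box in 1 of 18 and in 3.28%. The same window held neither element in Dbp, Nr1d2 and Per3, which were also higher in SEA, or in Nr1d1 and Arntl. A match describes the sequence and is no evidence of binding.

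Dbp was at 107, 103 and 119 CPM in NC and 162, 175 and 152 CPM in SEA, a log2 difference of 0.56 ± 0.094 (edgeR adjusted p = 0.375, DESeq2 adjusted p = 0.00458, range 0.00458 to 0.702 over the alternatives tried). Its 3 SEA libraries were all above its 3 NC libraries, and NC replicate 2 was the lowest library of all. Tef was at 199, 226 and 201 CPM in NC and 257, 261 and 262 CPM in SEA, and Hlf at 6.01, 10.6 and 7.74 CPM in NC and 14.4, 17.1 and 11.9 CPM in SEA, with log2 differences of 0.31 ± 0.080 and 0.82 ± 0.24. All 3 members of this family of transcription factors were thus higher in every SEA library. Among the repressors, Nr1d2 was at 88.9, 102 and 80.9 CPM in NC and 128, 132 and 123 CPM in SEA, Per2 at 32.1, 31.6 and 25.8 CPM in NC and 35.3, 36.8 and 44.9 CPM in SEA, and Per3 at 35.5, 44.5 and 31.2 CPM in NC and 52.8, 47.4 and 49.7 CPM in SEA. Bhlhe41, which represses genes with E-boxes, was at 25.7, 35.9 and 29.1 CPM in NC and 39.8, 42.4 and 42.3 CPM in SEA. These 4 repressors were higher in SEA without overlap, by log2 differences of 0.49 ± 0.10 for Nr1d2, 0.38 ± 0.13 for Per2, 0.42 ± 0.14 for Per3 and 0.45 ± 0.13 for Bhlhe41. The repressor Per1 overlapped between the groups, at 33.9, 67.6 and 52.5 CPM in NC and 36, 43.7 and 91.4 CPM in SEA, with a log2 difference of 0.14 ± 0.37 (edgeR adjusted p = 0.852).

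Arntl, the activator that Nr1d1 and Nr1d2 repress, went the other way, at 32.8, 28.5 and 30.1 CPM in NC and 25.3, 25.4 and 23.4 CPM in SEA, a log2 difference of -0.31 ± 0.10 (edgeR adjusted p = 0.375). Of the 21 clock genes tested, 9 were higher and 1 lower at an unadjusted p under 0.05, with a median log2 difference of 0.28, beside 6.26% higher, 6.44% lower and a median of -0.020 over all genes tested. With the length trend removed, 7 were higher and 1 lower, beside 5.88% and 4.98% of all genes, and the median was 0.24, beside -0.023. Without NC replicate 2, 9 were higher and 1 lower at an adjusted p under 0.05, beside 14.2% and 10.1%. The summed CPM of the list was 1107 to 1256 in NC and 1382 to 1441 in SEA, and 1345 to 1441 over the HT and EA libraries. Nr1d1 was at 40.7, 40.4 and 47.6 CPM in NC and 56.5, 56 and 47.3 CPM in SEA and overlapped between the groups. The study's methods state that brains were collected at the same time, and give no hour. Tef, Hlf, Per2, Per3, Bhlhe41, Per1 and Nr1d1 were chosen for the text after their values were seen.

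**Figure D3:**
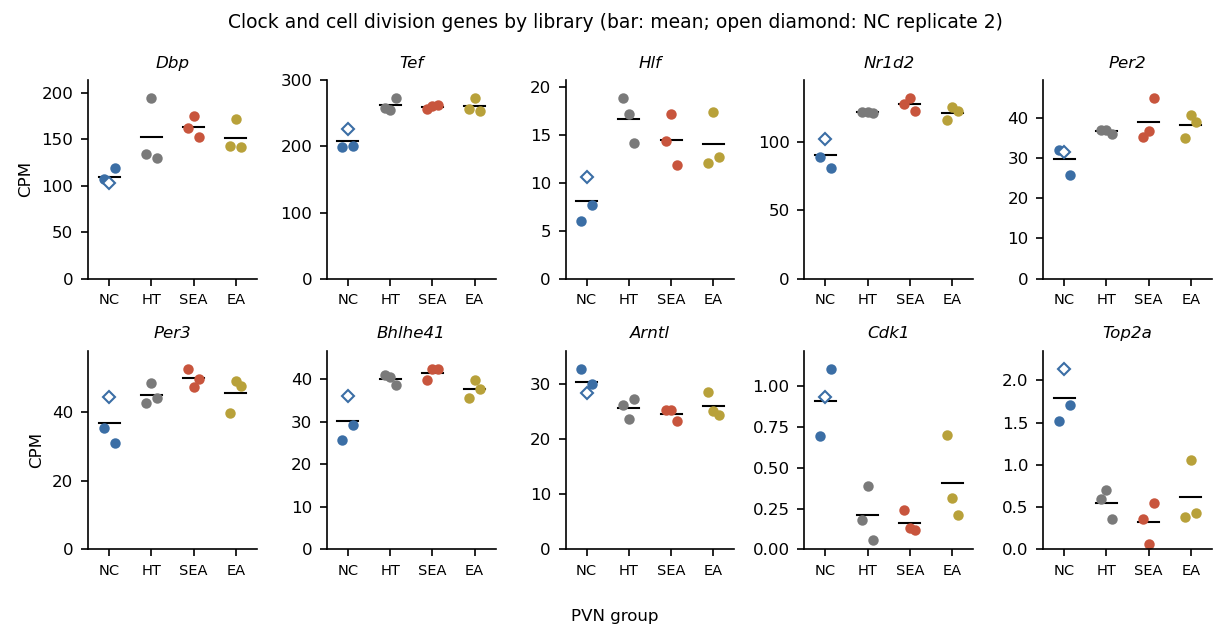
CPM (y axis, linear from 0) of 8 clock genes and 2 cell division genes in the 4 PVN groups (x axis), with a point for each library, NC replicate 2 as an open diamond and a bar at the mean. Dbp, Nr1d2, Tef, Hlf, Per2, Per3 and Bhlhe41 are higher in all 3 SEA libraries than in all 3 NC libraries, and Arntl, Cdk1 and Top2a are lower.

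Some genes of cell division were lower in SEA by unadjusted p. Dividing cells turn them on from the DNA copying phase to mitosis, and mature neurons keep them off. Their promoters often carry the cell cycle gene homology region (CHR, TTTGAA), the element that holds such genes silent in resting cells. The promoters of Cdk1, the kinase that starts mitosis, and Top2a, the topoisomerase that untangles copied DNA, are shown because both genes were lower in every SEA library and both hold a CHR close to the start. The bases are from RefSeq on build GRCr8, the CHR is in capitals in either orientation, and the window is again the 250 bases before the start.
Cdk1 (chr20:19265043-19265292, plus strand): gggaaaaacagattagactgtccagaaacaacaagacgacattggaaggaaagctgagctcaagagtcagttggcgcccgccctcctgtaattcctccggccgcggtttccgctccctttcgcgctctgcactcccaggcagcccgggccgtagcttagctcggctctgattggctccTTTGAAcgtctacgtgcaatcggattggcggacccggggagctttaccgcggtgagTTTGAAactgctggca
Top2a (chr10:84473094-84473343, minus strand): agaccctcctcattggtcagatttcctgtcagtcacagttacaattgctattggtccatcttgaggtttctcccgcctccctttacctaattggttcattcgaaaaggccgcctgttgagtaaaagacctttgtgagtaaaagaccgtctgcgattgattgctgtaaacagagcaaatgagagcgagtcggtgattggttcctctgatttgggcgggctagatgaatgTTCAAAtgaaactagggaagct
The CHR begins 72 and 16 bases before the start in Cdk1 and 22 bases before it in Top2a. The CHR was present in 10 of 24 promoters of the cell division list and in 16.2% of all promoters. Mki67, which overlapped between the groups as given below, held 2 as well, 117 and 99 bases before the start.

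Top2a was counted 24, 39 and 31 times in the NC libraries and 6, 1 and 9 times in the SEA libraries, or at 1.52, 2.14 and 1.71 CPM in NC and 0.359, 0.0647 and 0.545 CPM in SEA. Cdk1 was counted 11, 17 and 20 times in NC and 4, 2 and 2 times in SEA. The libraries of the groups did not overlap for either gene, with log2 differences of -2.44 ± 0.52 for Top2a and -2.43 ± 0.46 for Cdk1 (edgeR adjusted p = 0.375 for both), and the lowest values lie below the 3 counts that a count of 0 allows. Mki67, the common marker of dividing cells, was at 2.47, 5.48 and 3.81 CPM in NC and 2.7, 2.33 and 3.51 CPM in SEA and overlapped. Of the 28 cell division genes tested, 0 were higher and 9 lower at an unadjusted p under 0.05 (Cdk1, Top2a, Ckap2, Nusap1, Ndc80, Bub1, Kif11, Birc5 and Plk1), beside 6.26% and 6.44% of all genes, with a median log2 difference of -0.40, and with the length trend removed 10 were lower, beside 4.98%. With NC replicate 2 left out, 30 members passed the filter, and of these 1 was higher and 8 lower at an adjusted p under 0.05, beside 14.2% and 10.1%. The summed level of the list was 87.8 to 95.2 CPM in NC and 69.9 to 79.6 CPM in SEA. Oligodendrocyte precursor markers, the main dividing cells of the adult brain, summed to 410 to 544 CPM in NC and 456 to 542 CPM in SEA and overlapped. Microglia markers summed to 536 to 561 CPM in NC and 503 to 651 CPM in SEA. This list, Cdk1 and Mki67 were chosen after values were seen.

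Some genes of sterol synthesis were lower in SEA by unadjusted p. Tm7sf2, a reductase of the late cholesterol pathway, was at 20.8, 21.4 and 19.5 CPM in NC and 12.6, 11.5 and 13 CPM in SEA, a log2 difference of -0.74 ± 0.11 (edgeR adjusted p = 0.375, DESeq2 adjusted p = 0.00768, range 0.00457 to 0.702 over the alternatives tried). Acss2, which makes acetyl-CoA from acetate, was at 84.4, 81.7 and 97.3 CPM in NC and 56.8, 60 and 66.1 CPM in SEA, a log2 difference of -0.53 ± 0.10. Mvd, an enzyme of the mevalonate pathway, was at 41, 37.7 and 47.1 CPM in NC and 30.1, 33.1 and 33.1 CPM in SEA. The groups were apart in all 3 genes. Of the 23 cholesterol synthesis genes tested, 0 were higher and 7 lower at an unadjusted p under 0.05 (Hmgcs1, Pmvk, Mvd, Cyp51, Tm7sf2, Msmo1 and Dhcr7), beside 6.26% and 6.44% of all genes, and with the length trend removed the number lower was also 7, beside 4.98%. At an adjusted p under 0.05 without NC replicate 2, 1 was higher and 5 lower, beside 14.2% and 10.1%. The median of the whole list was only -0.075, and the regulator Srebf2 was at 197, 210.5 and 189 CPM in NC and 210.4, 209.8 and 239 CPM in SEA.

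Further genes that were lower in SEA had varied roles. Aifm3 was at 94.9, 80.1 and 91.4 CPM in NC and 47.7, 56.2 and 61.4 CPM in SEA, and C1qtnf5 at 45.8, 43.5 and 42.7 CPM in NC and 24.3, 28.1 and 31.6 CPM in SEA. Col11a2, a fibrillar collagen chain, was at 155, 130.2 and 136 CPM in NC and 94.1, 101 and 101 CPM in SEA. In these NC replicate 2 lay nearer to the other controls than to the SEA libraries. Rcor2, a corepressor that acts with histone demethylation, was at 3.79, 3.56 and 3.76 CPM in NC and 1.2, 1.88 and 1.39 CPM in SEA. Gadd45a, a gene of the response to DNA damage, was at 28.2, 25.3 and 25.1 CPM in NC and 18.8, 16.8 and 17.3 CPM in SEA. The edgeR adjusted p was 0.375 for each of these 5 genes, and DESeq2 called Aifm3, C1qtnf5 and Col11a2 at adjusted p of 0.00458, 0.0129 and 0.0225. A gene named only by its small nucleolar RNA family, RF00405, was counted 113, 100 and 115 times in NC and 21, 13 and 24 times in SEA. Every SEA library was far below every NC library, with a log2 difference of -2.41 ± 0.26 (edgeR adjusted p = 0.314, DESeq2 adjusted p = 2.65e-08, range 2.65e-08 to 0.668 over the alternatives tried), but several rows of the count table share its family name, so reads could have been split between copies.

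A second set of genes had NC replicate 2 with the SEA libraries. NC replicate 2 lay nearer to the SEA mean than to the other controls in 74.0% of all genes tested, and genes of synaptic transmission were among them. Oprm1, the mu opioid receptor, was at 1.26, 12.4 and 3.15 CPM in NC and 15.6, 15.3 and 12.6 CPM in SEA, so that NC replicate 2 was close to the lowest SEA library and far from the other controls. Its log2 difference was 1.35 ± 0.67 with all libraries (edgeR adjusted p = 0.376) and 2.69 ± 0.34 without NC replicate 2 (edgeR adjusted p = 0.00192), and its adjusted p ran from 0.00192 to 0.702 over the alternatives tried. Camk2a, a kinase of the postsynaptic density, was at 67.4, 139 and 73.1 CPM in NC and 142, 162 and 149 CPM in SEA. Its log2 difference was 0.69 ± 0.26 with all libraries and 1.1 ± 0.085 without NC replicate 2 (edgeR adjusted p = 0.375 and 2.89e-04, and 2.89e-04 to 0.702 over the alternatives). Camk2a and Oprm1 were thus separated from the SEA level in 2 control libraries and not in the other.

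Inhibitory transmission had a high median among the neuronal lists. Of the 27 GABA and glycine transmission genes tested, 10 were higher and 0 lower at an unadjusted p under 0.05, beside 6.26% and 6.44% of all genes, with a median log2 difference of 0.42. Gabra2, a subunit of the GABA-A receptor, was at 44.6, 65.8 and 43.7 CPM in NC and 77.9, 68 and 80.8 CPM in SEA, and Gabra3, another subunit, at 37.3, 53.1 and 41.8 CPM in NC and 57, 60.4 and 60 CPM in SEA. Receptor subunits made up the genes that were higher, whereas Gad1, which makes GABA, was at 330.3, 281 and 368 CPM in NC and 298, 279 and 330.2 CPM in SEA. Without NC replicate 2, 15 of the 27 were higher at an adjusted p under 0.05, beside 14.2% of all genes, and NC replicate 2 lay nearer to the SEA mean in all 15, beside 95.3% of all genes called in that fit. With the length trend removed and all 6 libraries, 9 were higher and 1 lower, beside 5.88% and 4.98% of all genes, and the median was 0.43.

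Potassium channel genes, which set the excitability of neurons, had a median log2 difference of 0.39 (0.29 with the length trend removed). In either fit 5 of 27 were higher and 0 lower, beside 6.26% and 6.44% of all genes (5.88% and 4.98% with the length trend removed). Kcnj3, a channel opened by G proteins, was at 9.93, 18 and 12 CPM in NC and 20.7, 22.5 and 18 CPM in SEA. Of 25 glutamate receptor genes 4 were higher and 0 lower, with Grm5, a metabotropic receptor, at 18.6, 47.3 and 31.2 CPM in NC and 56.6, 55.6 and 57.2 CPM in SEA. In Kcnj3 and Grm5 NC replicate 2 was the highest control, level with the lowest SEA library in Kcnj3 and under it in Grm5. Of 27 presynaptic vesicle genes 6 were higher and 0 lower, and Pclo, a large scaffold of the vesicle release site, was at 75.1, 151 and 75.2 CPM in NC and 174, 163 and 171 CPM in SEA. Of 30 postsynaptic scaffold and kinase genes 6 were higher and 2 lower. Nrgn, a short postsynaptic gene that binds calmodulin, was at 191, 122 and 166 CPM in NC and 117, 112 and 119.5 CPM in SEA. The medians were 0.20, 0.19 and 0.29 for glutamate receptor, presynaptic and postsynaptic genes, and 0.14, 0.12 and 0.21 with the length trend removed, where 4, 5 and 4 were higher and 2, 0 and 2 lower, beside 5.88% and 4.98%. Without NC replicate 2, 11 glutamate receptor, 11 presynaptic, 16 postsynaptic and 17 potassium channel genes were higher at an adjusted p under 0.05, beside 14.2% of all genes, and 1, 0, 1 and 0 were lower, beside 10.1%. Markers of neurons of neighbouring or distant regions were compared as well. Thalamic markers summed to 872 CPM in NC replicate 1, 1263 and 1198 CPM in NC replicates 2 and 3, and 1187 to 1536 CPM in SEA, with 2 of 15 higher and 0 lower at an unadjusted p under 0.05 and a median log2 difference of 0.34 (0.37 with the length trend removed, where the counts were the same), as large as in several of the neuronal lists above. Cortical and hippocampal excitatory markers summed to 267 to 313 CPM in NC and 293 to 311 CPM in SEA, with 0 of 15 higher or lower and a median of 0.27 (0.16 with the length trend removed), and striatal markers to 287 to 320 CPM in NC and 264 to 313 CPM in SEA, with 0 of 13 and a median of 0.091. Their part in the neuronal values was not tested.

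**Figure D4:**
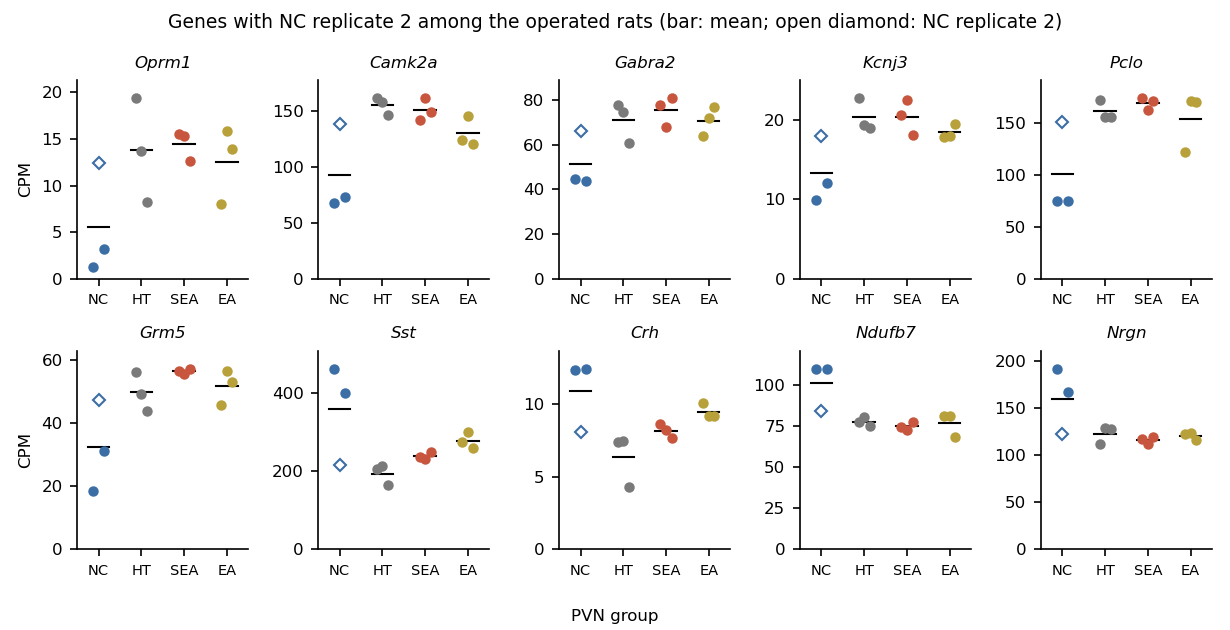
CPM (y axis, linear from 0) of 10 genes in which NC replicate 2 (open diamond) lies with the operated rats, in the 4 PVN groups (x axis), with a point for each library and a bar at the mean. In Oprm1, NC replicate 2 is at 12.4 CPM, near the SEA libraries at 12.6 to 15.6, and NC replicates 1 and 3 are at 1.26 and 3.15.

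Genes of energy supply and protein synthesis, which are short and abundant, went the other way in the same libraries. Of the 68 nuclear genes of oxidative phosphorylation tested, 0 were higher and 32 lower in SEA at an unadjusted p under 0.05, beside 6.26% and 6.44% of all genes, with a median log2 difference of -0.27. Ndufb7, a subunit of respiratory complex I, was at 109.9, 84.1 and 109.6 CPM in NC and 74.8, 72.5 and 77.6 CPM in SEA, and the summed level of the list was 13700 and 13960 CPM in NC replicates 1 and 3, 11575 CPM in NC replicate 2 and 11104 to 11483 CPM in SEA. Of the 69 cytosolic ribosomal protein genes, 0 were higher and 23 lower, beside the same shares, with a median of -0.28. Rps2, of the small subunit, was at 322, 282 and 310.4 CPM in NC and 252, 240.2 and 239 CPM in SEA, and the list summed to 16343 and 15412 CPM in NC replicates 1 and 3, 12125 CPM in NC replicate 2 and 11786 to 12408 CPM in SEA. With the length trend removed, 17 oxidative phosphorylation genes and 6 ribosomal protein genes were lower, beside 4.98% of all genes, with medians of -0.16 for each list. Without NC replicate 2, 52 of 68 oxidative phosphorylation genes and 48 of 70 ribosomal protein genes were lower at an adjusted p under 0.05, beside 10.1% of all genes, and 58 and 54 by unadjusted p, beside 18.0%. The counts of both lists shrank more with the length correction than those of the neuronal lists. Of 13 genes of the mitochondrial genome, 1 was lower, and they took 7.58% to 8.77% of counts in NC and 7.07% to 8.0% in SEA.

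**Figure D5:**
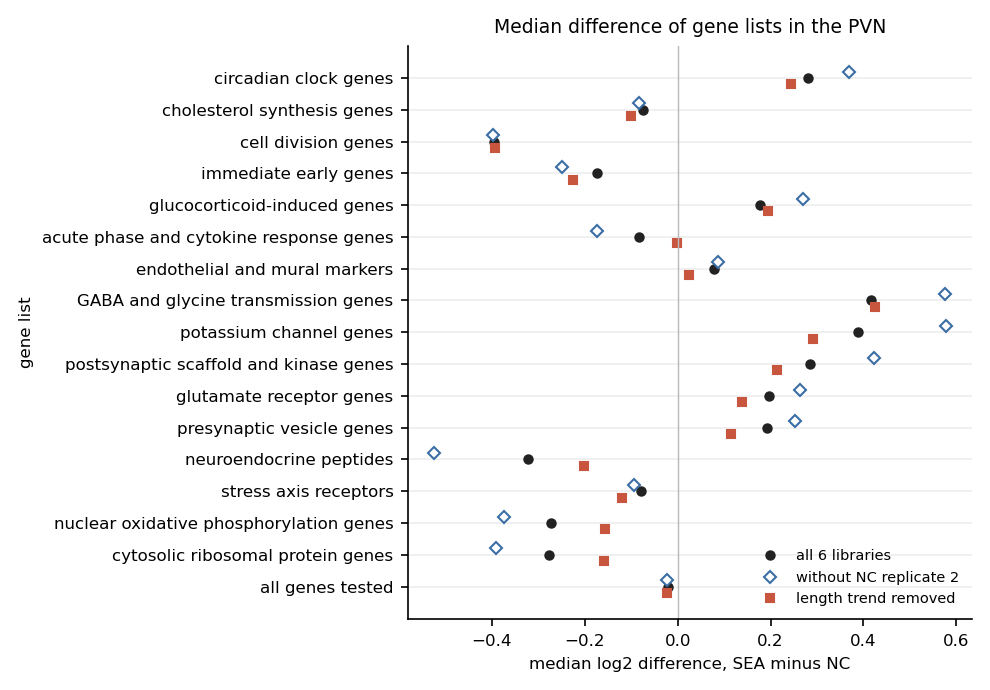
Median log2 difference of SEA minus NC (x axis) over the tested members of 17 gene lists (y axis), with all 6 libraries, without NC replicate 2, and with the length trend removed. The GABA and glycine list stays near 0.42 under the length correction, and the ribosomal protein list moves from -0.28 to -0.16.

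The neuropeptide list holds peptides of the PVN and of other hypothalamic nuclei, proteins stored with them and enzymes that process them. Of its 31 genes tested, 1 was higher and 8 were lower at an unadjusted p under 0.05, beside 6.26% and 6.44% of all genes. The median log2 difference was -0.32. With the length trend removed, 1 was higher and 6 lower, beside 5.88% and 4.98%, and the median was -0.20. With NC replicate 2 left out, 16 were lower by unadjusted p, beside 18.0% of all genes, and 12 at an adjusted p under 0.05, beside 10.1%. Crh was at 12.3, 8.06 and 12.4 CPM in NC and 8.62, 8.22 and 7.69 CPM in SEA. NC replicates 1 and 3 were above the SEA libraries and NC replicate 2 was among them, and the log2 difference was -0.42 ± 0.20 (edgeR adjusted p = 0.375). Avp was at 279, 296 and 376 CPM in NC and 281, 375 and 280.4 CPM in SEA, and Oxt at 578, 554 and 778 CPM in NC and 515, 655 and 476 CPM in SEA. The groups overlapped for both, with log2 differences of -0.030 ± 0.16 for Avp and -0.22 ± 0.17 for Oxt, so that no difference was detectable with 3 libraries a group.

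Trh was at 149, 99.7 and 128 CPM in NC and 89.1, 94.6 and 98.1 CPM in SEA, a log2 difference of -0.42 ± 0.14, and was lower without overlap. Sst, the gene of somatostatin, which restrains growth hormone, was at 463, 216 and 401 CPM in NC and 237, 232 and 249.5 CPM in SEA. Ghrh, which drives growth hormone release and is made mainly in the neighbouring arcuate nucleus, was at 6.51, 4.61 and 5.64 CPM in NC and 3.65, 1.62 and 2.0 CPM in SEA. For Sst, NC replicate 2 was the lowest library of all, whereas for Ghrh all 3 NC libraries were above all 3 SEA libraries, with log2 differences of -0.59 ± 0.24 and -1.2 ± 0.33 (edgeR adjusted p = 0.375 for both). Penk, the gene of enkephalin, was at 260.4, 159 and 235 CPM in NC and 163, 153 and 179 CPM in SEA, and Pdyn, that of dynorphin, at 134, 97 and 94.1 CPM in NC and 97.6, 98.6 and 98.8 CPM in SEA. Vip was the only member of the list that was higher at an unadjusted p under 0.05, at 7.78, 9.76 and 8.51 CPM in NC and 13, 12.3 and 9.99 CPM in SEA. Markers of other hypothalamic nuclei, which the dissection could include, summed to 434 to 598 CPM in NC and 428 to 458 CPM in SEA, with 0 of 18 higher and 2 lower and a median log2 difference of -0.29 (-0.25 with the length trend removed), of which Agrp, Pomc, Hcrt and Kiss1 are also on the peptide list, and pituitary markers to 24.4 to 30.6 CPM in NC and 20.4 to 27 CPM in SEA. Pomc and Agrp, which neurons of the arcuate nucleus make, were lowest in SEA replicate 2, with Pomc at 44.7, 64.9 and 59.4 CPM in NC and 49.1, 13.5 and 28.4 CPM in SEA, and Agrp at 11.7, 9.32 and 11.9 CPM in NC and 9.82, 0.841 and 5.63 CPM in SEA (both chosen after their values were seen). Their part in the peptide values, and that of the other marker genes, was not tested.

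Of the 20 receptors and partners of the stress axis tested, 1 was higher and 1 lower at an unadjusted p under 0.05, near the shares of all genes, and the same numbers passed with the length trend removed. The mineralocorticoid receptor gene Nr3c2 was at 3.29, 8.66 and 4.86 CPM in NC and 10.2, 9.77 and 9.93 CPM in SEA, and the receptor gene Crhr2 at 12.6, 6.63 and 8.57 CPM in NC and 4.91, 5.5 and 7.03 CPM in SEA. In Nr3c2 the controls were spread more widely, from 3.29 to 8.66 CPM, than the SEA libraries, from 9.77 to 10.2 CPM. Crhr1 was at 4.43, 6.09 and 7.41 CPM in NC and 5.57, 6.6 and 6.72 CPM in SEA, Mc4r, the melanocortin receptor that curbs feeding, at 4.11, 4.0 and 5.75 CPM in NC and 3.95, 3.88 and 4.36 CPM in SEA, Agtr2, an angiotensin receptor, at 0.506, 0.932 and 0.719 CPM in NC and 1.8, 1.29 and 0.848 CPM in SEA, and the dopamine receptor Drd2 at 11.3, 12 and 14.5 CPM in NC and 13.5, 11.4 and 15.6 CPM in SEA. The groups overlapped in all 4. Oprk1, the kappa opioid receptor, was at 9.04, 12.6 and 7.57 CPM in NC and 16.4, 13.8 and 16 CPM in SEA, without overlap. The glucocorticoid receptor Nr3c1 was not analysed here.

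Of 23 genes that glucocorticoids induce, 2 were higher and 0 lower at an unadjusted p under 0.05, beside 6.26% and 6.44% of all genes, while 18 had a difference above 0 and the median log2 difference was 0.18, beside -0.020 over all genes (2, 0 and 0.20 with the length trend removed). The list summed to 466, 722 and 618 CPM in NC and 535, 607 and 984 CPM in SEA, so that SEA replicate 3 stood above the other 5 libraries and the groups overlapped. Sgk1, a kinase that glucocorticoids induce, was at 24.8, 99.5 and 81.5 CPM in NC and 46.4, 65.3 and 193 CPM in SEA, and Pdk4, a brake on pyruvate use, at 3.41, 7.18 and 4.98 CPM in NC and 3.89, 4.53 and 19.3 CPM in SEA, both highest in SEA replicate 3 (both chosen after their values were seen). Zbtb16, a transcription factor strongly induced by glucocorticoids, was at 3.16, 6.25 and 3.87 CPM in NC and 11.5, 14.8 and 9.75 CPM in SEA, a log2 difference of 1.43 ± 0.29 (edgeR adjusted p = 0.375, DESeq2 adjusted p = 0.00458, range 0.00234 to 0.702 over the alternatives tried). It was above the controls in every SEA library and at 19.1 ± 18.7 CPM (SD, n = 3) in HT. Mertk, a receptor for the uptake of dead cells, was at 19.9, 24 and 25.7 CPM in NC and 31, 32.2 and 29.7 CPM in SEA. Fkbp5, the usual reporter of glucocorticoid action, was at 34.2, 31.4 and 29 CPM in NC and 32.5, 32.1 and 46.5 CPM in SEA, where SEA replicate 3 alone was above the controls.

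Immediate early genes, which neurons switch on within minutes of strong input, were lower in part. Of 21 tested, 1 was higher and 4 lower at an unadjusted p under 0.05, beside 6.26% and 6.44% of all genes, with a median log2 difference of -0.17. With the length trend removed 1 was higher and 3 lower, beside 5.88% and 4.98%, with a median of -0.23. Nr4a1 was at 20.6, 26.6 and 36.3 CPM in NC and 16.9, 11.5 and 16.1 CPM in SEA, a log2 difference of -0.92 ± 0.23, and Junb at 46.3, 53.3 and 50.4 CPM in NC and 37.8, 35.7 and 28.5 CPM in SEA, a log2 difference of -0.56 ± 0.13 (edgeR adjusted p = 0.375 for both). Both were lower in every SEA library. Fos was at 23.6, 29.7 and 30.8 CPM in NC and 18.1, 16.1 and 24.7 CPM in SEA, with the highest SEA library above the lowest control. Homer1, of the postsynaptic density, was the gene that was higher, at 8.16, 14.1 and 12.2 CPM in NC and 15.9, 16.6 and 20.1 CPM in SEA.

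Among the glial markers those of astrocytes differed in part. Gfap, the filament of astrocytes, was at 452, 508 and 419 CPM in NC and 339, 322 and 387 CPM in SEA, a log2 difference of -0.40 ± 0.10 (edgeR adjusted p = 0.375), with no overlap. The 15 astrocyte markers had 1 higher and 3 lower at an unadjusted p under 0.05, beside 6.26% and 6.44% of all genes, and without NC replicate 2 they had 3 higher and 4 lower at an adjusted p under 0.05, beside 14.2% and 10.1%. With the length trend removed and all 6 libraries they had 0 higher and 2 lower. Without that correction, 6 of the 15 were above 0, with differences from -0.41 to 1.05 and a median of -0.080. Their summed level overlapped, at 6735 to 6802 CPM in NC and 6126 to 6788 CPM in SEA. The 15 oligodendrocyte markers had 0 higher and 0 lower with all 6 libraries, with or without the length trend. Fibroblast and meningeal markers summed to 250.2 to 294 CPM in NC and 218 to 281 CPM in SEA, and ependymal and tanycyte markers to 135 to 215 CPM in NC and 113 to 154 CPM in SEA. Choroid plexus markers summed to 24.0 to 31.1 CPM in NC and 24.3 to 28.8 CPM in SEA. Ttr, the defining gene of that tissue, was at 0.759, 3.12 and 4.42 CPM in NC and 0.779, 1.23 and 0.242 CPM in SEA, which is a trace level in all 6 libraries. Pan-neuronal markers summed to 5991 to 6577 CPM in NC and 6091 to 6446 CPM in SEA, so that their summed level overlapped between the groups.

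The same contrast in the CEA used no library in common with the PVN. By edgeR 0 of 16423 genes passed the adjusted threshold there (0.0%) and 406 were past 0.05 by unadjusted p (2.47%), 187 higher (1.14%) and 219 lower (1.33%), against 821 if no gene differed. Over 16026 genes, the log2 differences in the PVN and the CEA had a Pearson correlation of 0.079 and a Spearman correlation of 0.049, given as a description across genes. Of 2075 genes with an unadjusted p under 0.05 in the PVN, 55.4% had the same sign in the CEA, and of all genes 51.5%.

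Some of the groups of the PVN had members with low p values in the CEA too. Among the clock genes tested there, 5 of 21 were higher and 1 lower at an unadjusted p under 0.05, but 11 were above 0 and the median was 0.029, against 19 and 0.28 in the PVN, with Dbp at a log2 difference of 0.42, Nr1d2 at 0.31 and Per3 at 0.43. Among the 23 cholesterol synthesis genes 0 were higher and 8 lower, beside 1.14% and 1.33% of all genes there, with Tm7sf2 at -0.58 and Mvd at -0.54. Their median was -0.21 and 1 was above 0, against -0.075 and 10 in the PVN. Among the 30 cell division genes tested there 0 were higher and 6 lower, with Top2a at -1.44 and Mki67 at -0.98. Their median was -0.57, against -0.40 in the PVN. Among the 21 immediate early genes 0 were higher and 7 lower, with Nr4a1 at -1.1. Their median was -0.51 and 0 were above 0, against -0.17 and 5 in the PVN. Zbtb16 was at 0.98, Heph at 0.66, Lrg1 at 1.18 and RF00405 at -1.96. Of the GABA and glycine, potassium channel, presynaptic and postsynaptic genes, 0 were higher or lower in the CEA, and of the glutamate receptor genes 1 of 25 was higher and 1 lower, beside 1.14% and 1.33% of all genes there. The medians of these lists in the CEA were 0.073, -0.15, -0.059, -0.16 and 0.018.

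A test of the difference between the regions called no gene. In the fit of 12 libraries, 0 of 17265 genes had an adjusted p under 0.05 for the interaction by edgeR (0.0%) or by DESeq2, and 1008 were past 0.05 by unadjusted p (5.84%), 481 with the larger SEA minus NC value in the PVN (2.79%) and 527 with the smaller (3.05%). Without PVN NC replicate 2, 1240 genes passed. Among the named genes with the smallest interaction p, Prmt6, an arginine methyltransferase, had a log2 difference of 1.25 in the PVN and -0.93 in the CEA (interaction adjusted p = 0.69 by edgeR). Egr2, an immediate early gene, had 0.17 in the PVN and -2.02 in the CEA. Sh2d1b had 0.88 and -0.86, and Mgp, an inhibitor of calcification made by vessel cells, -0.23 and 0.42. The neuronal genes with NC replicate 2 among the SEA libraries had interaction p values of 0.0834 for Oprm1 and 0.0647 for Camk2a, unadjusted.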

How the data were processed

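The authors aligned paired reads of poly(A) RNA from punched tissue with HISAT2 and counted reads per gene with featureCounts (versions not given in the sources used here). The deposited table holds raw counts, not normalized, for 35032 genes, of which 32883 are Ensembl genes and 2149 assembled transcripts. The notes list a human genome build and the methods name mRatBN7.2, but the last gene of chromosome 1 ends at 282724300, so the build was not settled and no coordinates are given from the table. 1 stray header line was dropped. No column was left without a sample.

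Groups were taken from the sample titles. Counts of the 6 PVN libraries of SEA and NC were filtered (filterByExpr), scaled by TMM and tested for all genes with the quasi-likelihood F-test of edgeR 4.0.16 in R 4.3.3, two-sided, and p-values were adjusted by Benjamini-Hochberg, with 0.05 as the threshold. The 12 libraries of both regions gave the interaction. Standard errors are the size of the log2 difference divided by the square root of F. A level of 3 counts, the most that a count of 0 allows, equals 0.164 to 0.194 CPM in these libraries on the TMM scale and covers counting error only. The p-values measure the spread between libraries. No source used here ties a library to a rat. The methods say that brain samples did not come from the same animal, but also that 12 rats were divided into 4 groups, fewer than the 24 libraries. Whether PVN and CEA libraries share rats is therefore not settled, and the interaction fit held no term for the rat.

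Alternatives were DESeq2 1.42.0 (its missing adjusted p values were kept as missing), limma 3.58.1 with voom and sample weights, other size factors, no filter, all 4 PVN groups, no mitochondrial genes, a replicate block and each library left out. The removal of each library's trend with gene length was chosen after seeing the data. The main edgeR fit was tested on simulated counts, where it called 196 of 200 genes changed 4-fold and 20 unchanged genes. No simulated library was made to stand apart as NC replicate 2 did, and the other fits were not tested this way.

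The text names the 10 genes a direction with the smallest p (with a symbol, at least 1 CPM on average and no overlap), the leading genes of lists by p, a set of PVN genes, and the 3 genes a direction with the smallest interaction p. Of 753 list symbols 726 were matched. The comparison, the genes and the lists were chosen with earlier results of these data known. No p was adjusted over a list. A few genes that the rule takes are not reported here.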

Additional observations from a re-analysis of the deposited data

How the results depend on the processing

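No gene had an adjusted p under 0.05 for SEA against NC with RLE size factors, with no filter, with all 4 PVN groups in the fit, without mitochondrial genes or with the length trend removed, whereas DESeq2 called 25 genes (13 higher and 12 lower) and limma voom with sample weights 2972 (1895 higher and 1077 lower). The weights were 0.268 for NC replicate 2 and 0.666 to 1.97 for the others. Of the 2972, 2893 were also called without NC replicate 2. Leaving out 1 library gave 0 to 4114 such genes, with 4114 without NC replicate 2 and 0 without any other. At an unadjusted p under 0.05 the 2118 genes became 5785 with voom and 3983 with all 4 PVN groups, and 744 to 6416 when 1 library was left out (782 without NC replicate 1, 6416 without NC replicate 2, 744 without NC replicate 3, and 830, 838 and 886 without SEA replicates 1, 2 and 3). DESeq2 gave 2139, of which 1380 were higher and 759 lower. The numbers in the titles did not pair the libraries, since the deviations of same-numbered SEA and NC libraries correlated at 0.0038, 0.0564 and -0.0439. With a replicate block 0 genes passed the adjusted and 2440 the unadjusted threshold, and 0 and 1226 for the interaction. The interaction calls at an adjusted p ran from 0 to 1240 with 1 library left out, with 1240 without PVN NC replicate 2, and were 0 under the other alternatives. Its 1008 unadjusted genes ran from 458 to 3890 (458, 3890 and 559 without PVN NC replicates 1, 2 and 3, 671 without PVN SEA replicate 2, and 1520 and 523 without CEA NC replicates 1 and 3). The cause of these shifts was not tested. Of 83 named genes 7 changed sign. Pdk4, at 0.81, was at -0.31 without SEA replicate 3 (1.18 without SEA replicate 1), and Sgk1, at 0.55, at -0.30 without SEA replicate 3 (0.92 without NC replicate 2). Per1, at 0.14, was at -0.087 without NC replicate 1 and -0.37 without SEA replicate 3 (0.39 without NC replicate 2). Avp, at -0.030, was at 0.11 without NC replicate 3, 0.039 and 0.046 without SEA replicates 1 and 3, -0.18 without SEA replicate 2, and 0.091 with the length trend removed. Crhr1 was at -0.046 with voom and -0.11 without NC replicate 1 (0.25 without NC replicate 3), Drd2 at -0.0049 with voom and -0.018 without SEA replicate 3 (0.21 without SEA replicate 2), and Pdyn at 0.032 without NC replicate 1 (-0.24 without NC replicate 3). With 3 libraries a group and 1 control apart from its fellows, the absence of calls by edgeR does not show that genes were equal. Genes near 3 counts, such as Top2a and Cdk1 in SEA, carry wide counting error.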

Other observations

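Interferon-stimulated genes, which type I and type II interferons turn on, were uneven within the SEA group. Of 20 tested, 0 were higher and 0 lower at an unadjusted p under 0.05 by edgeR, although the median log2 difference was 0.41, beside -0.020 over all genes tested, and with the length trend removed 1 was higher and the median was 0.40. Usp18, which damps interferon signalling, was at 3.6, 4.39 and 2.82 CPM in NC and 5.93, 10.2 and 3.69 CPM in SEA. Oasl was at 0.696, 0.987 and 0.663 CPM in NC and 1.26, 2.46 and 0.969 CPM in SEA. In both genes SEA replicate 2 was the highest library. In the CEA 1 of 20 members was higher and 0 lower by unadjusted p, beside 1.14% and 1.33% of all genes there, with a median of 0.49. Psmb9, of the immunoproteasome, was at 5.19, 3.78 and 5.2 CPM in NC and 3.41, 5.3 and 3.03 CPM in SEA.

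Npvf, the gene of an RFamide peptide made in the dorsomedial hypothalamus, was counted 650, 325 and 338 times in NC and 187, 152 and 183 times in SEA and was called by DESeq2 (adjusted p = 0.0284) and not by edgeR. Cttn, a partner of actin filaments, was counted 767, 815 and 652 times in NC and 258, 213 and 467 times in SEA (DESeq2 adjusted p = 0.0108). Abca1, which exports cholesterol from cells, was counted 774, 1179 and 869 times in NC and 1438, 1252 and 1359 times in SEA (DESeq2 adjusted p = 0.0333). Fam50a was counted 13, 13 and 23 times in NC and 22, 205 and 128 times in SEA, where SEA replicate 1, at 1.32 CPM, stood beside 1.27 CPM in NC replicate 3 (DESeq2 adjusted p = 0.00458). The edgeR adjusted p was 0.375 for all 4 of these genes. They were taken from the DESeq2 calls after their values were seen, and Oasl, Psmb9 and Rlim were among the smallest p values of their list or of the test between regions.

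Heat shock and chaperone genes lay close to all genes, with 1 of 22 higher and 2 lower at an unadjusted p under 0.05, beside 6.26% and 6.44%, and a median log2 difference of -0.064, and with 0 and 0 past that p once the length trend was removed.

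Some genes split the libraries of a group. The class I histocompatibility genes LOC103690108 and LOC100364500, members of a family of near copies whose counts are uncertain for that reason, were at 69.4 and 13.7 CPM in SEA replicate 3 and at no more than 0.164 CPM in the other 5 libraries, which is at most 3 counts in each. Neither was tested in the fit of 6 libraries, whose filter on low counts they did not pass. Rlim, a ubiquitin ligase, was at 3.92, 3.07 and 0.221 CPM in NC and 0.299, 0.129 and 0.121 CPM in SEA, with NC replicate 3 at the SEA level.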
